A study of Mus musculus with 36 samples.

Results

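Wnt ligands are the secreted signals through which the primitive streak and, later, the tail bud keep the body axis growing. The 9 genes described here, Wnt2b, Wnt3, Wnt3a, Wnt4, Wnt5a, Wnt5b, Wnt6, Wnt8a and Wnt11, were chosen by symbol: every probe whose gene symbol was 1 of these 9 was taken, in all regions. That gave 17 of the 45281 probes on the array, for 9 of its 30869 gene symbols. A probe counted as detected on an array when its deposited detection p was under 0.01, and 14 of the 17 probes, for 7 of the genes, were detected on at least 1 array and were tested. The Wnt2b probes and the single Wnt11 probe were detected on none of the 36 arrays, so these 2 genes have no measured level here.

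RNA was amplified from pieces dissected out of wild-type embryos of the outbred MF1 strain and hybridised to Illumina bead arrays, 36 arrays for 16 regions in 3 labelled batches of 12 arrays. Each array held a pool of 6 to 74 pieces of 1 region, so every value is a mean over many embryos and over all cell types in the piece. Headfold embryos at E7.5 gave an anterior region (A, n = 3), a posterior region (P, n = 2) and a proximal posterior region (PP, n = 2). Embryos at E8.5 gave the rostral node (RN, n = 2), the node-streak border (NSB, n = 3), the caudal lateral epiblast (CLE, n = 3), the anterior streak (St1, n = 2) and the posterior streak (St5, n = 2). Tail buds gave the chordoneural hinge (CNH) at E9.5 (n = 2), E10.5 (n = 2), E11.5 (n = 3), E12.5 (n = 2) and E13.5 (n = 2), and at the first 3 of these ages also what lies behind the hinge (P-CNH, n = 2 each). E13.5 CNH replicate 2 stood apart, with 10814 probes detected, the fewest of all arrays, and CLE replicate 1, a pool of 12 pieces, followed with 11062. The number of arrays limits the precision of every value.

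Wnt proteins are lipid-modified in the secreting cell and bind Frizzled receptors on the receiving cell. Wnt3, Wnt3a and Wnt8a are known chiefly for signalling through beta-catenin, which with TCF and LEF proteins turns on genes such as T, Axin2 and the Cdx genes, while Wnt5a, Wnt5b and Wnt11 are known chiefly for beta-catenin-independent effects on cell polarity and movement. In the mouse, Wnt3 is needed to form the streak, Wnt3a to go on making paraxial mesoderm from it, and Wnt5a to lengthen the axis, whereas Wnt4 and Wnt6 are best known from epithelia, among them the kidney tubule and the surface ectoderm.

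Of the 9 genes, 7 were matched to 10 transcription starts in a RefSeq promoter table of mouse build GRCm38.p6: Wnt2b, Wnt3, Wnt3a, Wnt4, Wnt5b, Wnt6 and Wnt11. The 250 bases before each start were searched on both strands for CTTTGAT (bound by TCF and LEF proteins), for GGGCGG (the GC box) and for TCACAC (a short T-box site), none of which contains another. CTTTGAT was found before 2 of the 10 starts, 1 of the 3 of Wnt5b and 1 of the 2 of Wnt11, and in 3.21% of all 32851 windows of this length. GGGCGG was found before 8 of the 10 starts and in 32.7% of all windows, and TCACAC before none of the 10 and in 12.3%. The windows of Wnt3a and of the Wnt5b start with the match are shown because these genes had the highest correlation of any pair of the ligands over the 16 regions.
Wnt3a: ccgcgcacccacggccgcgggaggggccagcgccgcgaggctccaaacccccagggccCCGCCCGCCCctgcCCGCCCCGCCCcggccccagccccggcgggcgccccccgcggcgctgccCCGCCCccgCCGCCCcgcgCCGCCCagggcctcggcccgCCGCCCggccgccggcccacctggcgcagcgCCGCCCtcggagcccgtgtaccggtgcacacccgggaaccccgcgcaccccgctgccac
Wnt5b: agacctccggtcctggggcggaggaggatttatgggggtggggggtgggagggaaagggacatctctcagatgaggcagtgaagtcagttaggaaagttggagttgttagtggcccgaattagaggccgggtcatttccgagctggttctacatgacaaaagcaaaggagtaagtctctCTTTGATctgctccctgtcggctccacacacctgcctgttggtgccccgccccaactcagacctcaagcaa
The Wnt3a window is chr11:59290752-59291001 on the minus strand, with its GC boxes in capitals, 9 matches of which some overlap. Its GC content was 87.6%, against a mean of 53.2% over all windows, with 41 CpG against a median of 6. The Wnt5b window is chr6:119449387-119449636 on the minus strand, with CTTTGAT in capitals, starting 71 bases before the transcription start, and its GC content was 55.6%. A match is a description of the letters and shows neither binding nor regulation.

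At E7.5 the ligands were sharply polarised. Wnt3a, Wnt8a, Wnt5a, Wnt5b and Wnt6 were all higher in P and in PP, which hold the primitive streak, than in the neural-fated A, and Wnt3a, undetected in A, was at least 64.6-fold higher in P and at least 94.4-fold higher in PP. Differences were tested with limma over all detected probes, and a gene was called when its p, adjusted by Benjamini-Hochberg, did not exceed 0.05 and it differed at least 1.5-fold. By a test over the 3 regions together, 5 of the 7 tested ligands were called, where 5.78% of all tested probes were. Against A singly, the same 5 were called in P, where 2.67% of all probes were, and in PP, where 6.19% were. In these pooled pieces, fewer cells that make a ligand and less of its RNA in each cell cannot be told apart.

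Among the ligands of beta-catenin signalling, the log2 intensity of Wnt3a was 4.88, 5.01 and 5.02 in the A samples, 11.84 and 11.89 in P, and 12.14 and 12.68 in PP. It was detected on all 4 posterior arrays and on none of the anterior ones, and the groups lay far apart. The adjusted p was 9.07e-15 for P and 4.83e-15 for PP. A fold against undetected samples is given as a lower bound, taken from the mean of the brighter group and, for each undetected sample, the higher of its own level and the lowest level detected on its array. Where fitted differences from undetected samples are given below, they serve to compare settings and are not sizes. Wnt8a was 7.55, 7.42 and 6.51 in A, 10.81 and 11.11 in P, and 9.61 and 10.67 in PP. All 7 samples were detected and none of the posterior samples overlapped the anterior ones. The fitted log2 difference from A was 3.78 (95% CI 3.20 to 4.36, adjusted p = 4.60e-09) for P and 3.02 (95% CI 2.41 to 3.64, adjusted p = 2.24e-07) for PP. Wnt3, the ligand that starts the streak, was detected on no array at E7.5.

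Wnt5a, the ligand of axis lengthening, was 7.62, 7.76 and 6.97 in A, 9.59 and 10.26 in P, and 10.13 and 10.44 in PP. The groups did not overlap, and the log2 difference from A was 2.20 (95% CI 1.21 to 3.18, adjusted p = 0.00874) for P and 3.39 (95% CI 2.35 to 4.42, adjusted p = 7.01e-05) for PP. Its close relative Wnt5b was 5.45, 5.92 and 6.26 in A, the lowest of them undetected, against 8.99 and 8.46 in P and 9.14 and 9.39 in PP. The fitted log2 difference of Wnt5b from A was 2.90 (95% CI 2.31 to 3.48, adjusted p = 3.39e-07) for P and 3.29 (95% CI 2.67 to 3.91, adjusted p = 6.86e-08) for PP. With 1 of the 3 A samples undetected, these values are not exact sizes. Wnt6 was undetected in A, at 4.67 to 4.95, and stood at 8.43 and 6.80 in P and at 8.47 and 7.64 in PP. That made it at least 3.39-fold higher in P (adjusted p = 0.00255) and at least 4.60-fold higher in PP (adjusted p = 0.000134). The P samples lay far apart, and P replicate 2 alone would give a much lower bound. Wnt4 was detected on 2 of the 3 A arrays, on neither P array and on 1 of the 2 PP arrays, all between 4.93 and 6.08, and was not called.

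No ligand differed between PP and P by limma, where 0.778% of all probes did. At an unadjusted p under 0.05 there were 2 of 7, Wnt3a with a log2 difference of 0.64 (adjusted p = 0.436) and Wnt8a with -0.76 (adjusted p = 0.434). The Wnt3a difference changed sign, to -0.28, with batch means removed. P was measured in batch 2 only and PP in batch 3 only. Within batch 2, the P minus A differences were 3.47 for Wnt8a, 2.24 for Wnt5a and 3.04 for Wnt5b, all called. Of the 2 ligands undetected in A, Wnt3a was called there and Wnt6 was not. Within batch 3, which held 1 A array, the PP minus A differences were 3.64, 3.31 and 3.01 in the same order, and none of the 5 ligands was called. The P call of Wnt5a was lost without P replicate 2 (1.87) and that of Wnt6 without P replicate 1 (1.85) or at an offset of 100 (1.36). The least bright of the 3 Wnt5a probes, detected on no A or P array, was not called in P (0.23) or PP (1.75), and the least bright of the 3 Wnt6 probes, detected in PP alone, was not called either (-0.02 and 0.28).

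Response genes of the pathway differed between these regions, and so did some of its other genes. Of 11 tested beta-catenin response genes, 10 were called over the 3 regions, where 5.78% of all probes were, each of them higher in PP than in A. The largest differences were those of Cdx1 (7.20), Cdx2 (6.43) and T (3.17), transcription factors of the posterior body and the streak. In P against A alone, 7 of the 11 were called, all higher in P, with a median log2 difference over the list of 2.10 against -0.03 over all tested probes. Of 18 receptors and co-receptors 6 were called, with Fzd10 higher in PP by 4.36 and Fzd5 and Fzd2 higher in A by 3.65 and 1.89. Of 12 secreted agonists and antagonists 6 were called, and here the inhibitors Sfrp1 and Cer1 were higher in A than in PP by 4.83 and 4.39, and the agonist Rspo3 was higher in PP by 3.89. Notum, an extracellular enzyme that strips the lipid from Wnt proteins, was 1 of 3 genes of ligand secretion and release to be called, higher in PP by 3.95. Of 6 other Wnt ligands only Wnt2 was called over the 3 regions, higher in P than in A by 1.81, a call lost without A replicate 1 (1.55).

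Markers of some other tissues moved along the same axis. All 5 primitive streak markers and all 4 paraxial mesoderm markers were called over the 3 regions, where 5.78% of all probes were. Tbx6 was undetected in A, while Tcf15 was the brightest paraxial mesoderm marker there (9.07, 9.66 and 8.20). Tcf15 was undetected in PP replicate 1, and Eomes was detected at E7.5 in PP replicate 2 alone. Called as well were 2 of the 4 neural markers, Otx2 and Pou3f1, both higher in A, and 3 of the 5 lateral mesoderm markers. Only 1 of 6 node and notochord markers and 1 of 5 surface ectoderm markers were called. None of 5 blood markers was, and none of 4 markers of hindgut and definitive endoderm. Of 6 visceral endoderm markers 4 were called over the 3 regions. In PP against A alone, where 6.19% of all probes were called, all 6 were, higher in PP. Their summed intensity was 1597, 1637 and 8521 in the A samples, 8521 and 4483 in P, and 30380 and 14020 in PP. The Ttr probe added most to both PP sums, and Afp and Rbp4 were undetected in both P samples and in A replicates 1 and 2. Their part in the differences of the ligands was not tested.

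**Figure D1:**
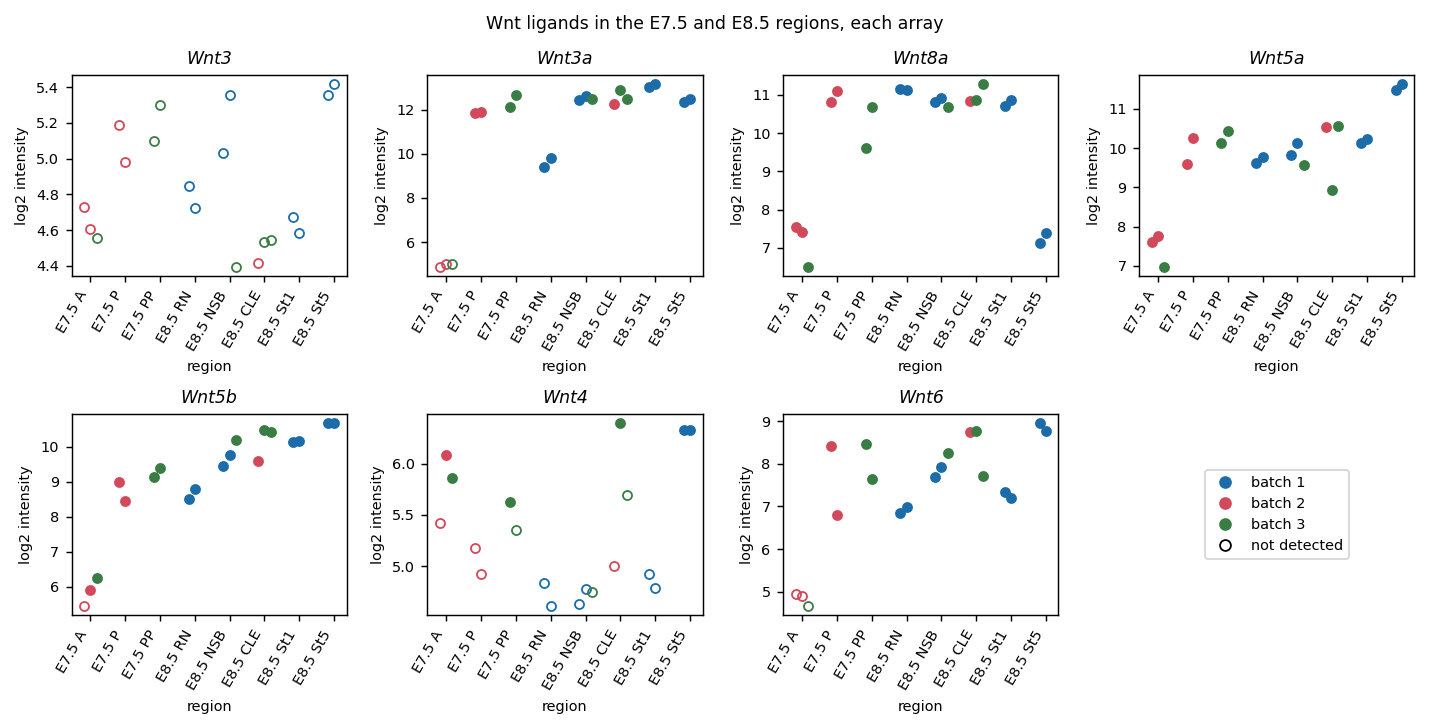
Log2 intensity of the 7 ligands with a tested probe in each array of the E7.5 and E8.5 regions, 1 point an array, coloured by batch, with open points where the probe was not detected. Wnt3a was undetected in A, between 9.42 and 9.80 in RN and at least 11.84 in the other early regions, and Wnt8a was low in A and in St5.

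From E7.5 P to E8.5 NSB, neither region of which shares a batch with the other, no ligand was called by limma, where 3.08% of all probes were, and 2 of 7 had an unadjusted p under 0.05. These were Wnt3a, with a log2 difference of 0.72 (adjusted p = 0.308), and Wnt5b, with 1.31 (adjusted p = 0.086), which was called without CLE replicate 1 (1.47), at an offset of 100 (1.17) and without a batch term (1.07).

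At E8.5 the ligands divided the streak by position. Wnt3a was high from the NSB to the posterior end of the streak and low in RN, Wnt8a was high everywhere but in St5, and Wnt5b was lowest in RN and highest in St5. Over the 5 regions together, Wnt3a, Wnt8a and Wnt5b were called, 3 of the 7 tested ligands, where 6.51% of all probes were, and 4 were called without either E13.5 CNH array or either E11.5 P-CNH array. Wnt4, Wnt5a and Wnt6 had their highest mean level in St5 as well, without a call in this test by their brightest probes. The second Wnt5a probe was called in it, with a largest difference of 1.98 (adjusted p = 0.000313), and the third was not.

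Wnt3a was 9.42 and 9.80 in RN, 12.43, 12.64 and 12.49 in NSB, 12.26 to 12.90 in CLE, 13.03 and 13.18 in St1, and 12.36 and 12.49 in St5. The RN samples lay below and the St1 samples above all others, RN by far the more, and NSB, CLE and St5 overlapped. Every other region was called against RN, with log2 differences of 2.93 for NSB (adjusted p = 2.06e-06), 2.96 for CLE (adjusted p = 5.69e-05), 3.50 for St1 (adjusted p = 3.64e-09) and 2.81 for St5 (adjusted p = 5.26e-08). CLE shares no batch with RN, St1 or St5. Differences between CLE and these regions, here and below, rest on NSB replicate 3, the only tie of batch 1 to the others. The order of fitted means was St1, CLE, NSB, St5 and RN, and among the first 4 no neighbours were called apart. In NSB against RN, Wnt3a was 1 of 7 ligands called in a comparison that called 0.134% of all probes, and in CLE against RN it was again the only ligand, with 1.42% of all probes called.

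Wnt8a was 11.16 and 11.13 in RN, 10.81, 10.91 and 10.67 in NSB, 10.84, 10.85 and 11.29 in CLE, 10.70 and 10.85 in St1, and 7.13 and 7.39 in St5. The St5 samples were detected and lay far below all 10 others, which ran together. The log2 difference of St5 was -3.88 (95% CI -4.51 to -3.26, adjusted p = 4.63e-09) from RN, -3.60 (adjusted p = 1.54e-08) from NSB, -3.91 (adjusted p = 3.99e-05) from CLE and -3.51 (adjusted p = 1.09e-07) from St1. Wnt8a was the only ligand called in St5 against CLE, where 1.41% of all probes were called, and against St1, where 3.27% were. Both other Wnt8a probes followed the same course over the 16 regions (r = 0.998 and 0.982 with the one described).

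Wnt5b was 8.51 and 8.79 in RN, 9.45, 9.75 and 10.18 in NSB, 9.59, 10.46 and 10.41 in CLE, 10.14 and 10.14 in St1, and 10.67 and 10.67 in St5. RN lay below and St5 above all other samples, and NSB, CLE and St1 overlapped. Against RN, the log2 difference was 2.02 for St5 (95% CI 1.39 to 2.64, adjusted p = 6.57e-05) and 1.49 for St1 (95% CI 0.86 to 2.12, adjusted p = 0.00475), the St1 call being lost without St1 replicate 1 (1.49), St1 replicate 2 (1.49) or RN replicate 1 (1.35). St1 against RN called 2 ligands of 7, Wnt3a and Wnt5b, with 2.28% of all probes. St5 against NSB, with 5.22% of all probes, called 2 as well, Wnt8a and Wnt5b (1.07, adjusted p = 0.0389), and this Wnt5b call was lost without any of 12 arrays, all 4 replicates 1 and 2 of NSB and St5 among them (0.92 to 1.22), without a batch term (0.87), with batch means removed (0.68) and with no filter (1.07).

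Between its ends, St5 against RN called 5 of the 7 ligands, where 6.09% of all probes were called. Beside Wnt3a, Wnt8a and Wnt5b these were Wnt5a and Wnt6. Wnt5a was 9.63 and 9.77 in RN and 11.48 and 11.64 in St5, a log2 difference of 1.86 (95% CI 0.81 to 2.92, adjusted p = 0.0261). Wnt6 was 6.85 and 6.99 in RN and 8.95 and 8.77 in St5, a difference of 1.94 (95% CI 0.81 to 3.07, adjusted p = 0.0313). Neither pair of groups overlapped, but the Wnt5a call was lost without any 1 of the St5 or RN arrays (1.79 to 1.94) and the Wnt6 call likewise (1.85 to 2.03). The Wnt5a call was also lost without a batch term (1.86), with no filter (1.86) and by the third probe (1.27). The Wnt6 call was also lost at an offset of 100 (1.40), under cyclic loess (1.88), with batch means removed (1.94), with no filter (1.94) and by the third probe (0.27). Wnt4, detected in no sample of RN, NSB or St1, was 6.33 and 6.33 in St5. That was at least 1.87-fold higher than in RN (adjusted p = 0.111, not called). The Wnt4 difference was called within batch 1 and when either E13.5 CNH array was left out (1.61), and under cyclic loess (1.95). Neither Wnt4 nor Wnt6 set St5 apart from CLE. Wnt4 was detected on 1 of the 3 CLE arrays, and its highest CLE sample lay above both St5 samples. The highest CLE sample of Wnt6, at 8.77, reached the lower St5 sample. RN, St1, St5 and NSB replicates 1 and 2 were all in batch 1, and within that batch each of these differences between RN, NSB, St1 and St5 had the same size and was called. Wnt3 was detected on no array at E8.5.

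Some other genes of the pathway differed between these regions. Of 18 receptors 3 were called over the E8.5 regions, where 6.51% of all probes were, Fzd2 and Fzd7 highest in RN and Fzd6 in NSB, all lowest in St5, with differences of 2.74, 1.84 and 1.78. Porcn, the enzyme that lipid-modifies Wnt proteins in the secreting cell, was 1 of 3 secretion genes called, and it too was highest in RN and lowest in St5 (2.13). Of 11 response genes 3 were called: Cdx1 (1.99) and Sp8 (1.39) were highest in St1 and lowest in St5, while Cdx4 (1.82) was highest in St5 and lowest in RN. Of 12 secreted agonists and antagonists 5 were called, led by the Dickkopf genes Dkk3 (2.97, highest in RN) and Dkk4 (2.65, highest in CLE) and by Sfrp1 (2.26, highest in RN). Wnt10a, 1 of 6 other ligands, was highest in St1 and lowest in RN (2.31). The calls of Fzd7 (1.72 to 1.96) and Sfrp1 (2.13 to 2.40) were lost without any 1 of the RN or St5 arrays, and that of Sp8 (1.30 to 1.48) without either St5 array or St1 replicate 2. That of Dkk4 (2.61 to 2.69) was lost without any 1 of the RN or St1 arrays or St5 replicate 2, and that of Cdx4 (1.66 to 1.98) without any 1 of the RN, St1 or St5 arrays or NSB replicates 1 or 2. By setting, Dkk4 was lost without background correction (1.81), at an offset of 100 (1.52) and with no filter (2.65), and Cdx4 under cyclic loess (1.82), without a batch term (1.99) and with no filter (1.82). Sfrp1 was lost with batch means removed (2.26) and Sp8 without a batch term (1.39).

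Markers of most tissues differed between the E8.5 regions, in the test that called 6.51% of all probes. Of 6 node and notochord markers 5 were called, with summed intensities of 5184 and 6232 in RN and 4059 to 5140 in NSB against 298.5 to 632.4 in CLE, St1 and St5. Against both RN and NSB, all 5 lateral mesoderm markers were called higher in St5, where 6.09% and 5.22% of all probes were called. Their summed intensity was 7195 and 8842 in St5 and 294.6 to 1330 in the other E8.5 samples. The Tbx4 probe added most to the St5 sums, and Hand1 and Foxf1a were detected in St5 alone. All 4 neural markers were called, with sums of 1175 and 1012 in RN, 392.1 to 495.9 in NSB, 287.4 to 940.6 in CLE, 325.1 and 284.2 in St1, and 154.5 and 142.2 in St5, where none was detected. Of 4 markers of hindgut and definitive endoderm 3 were called, with sums of 6050 and 6602 in RN, 6630 to 7046 in NSB and 1793 to 2520 in CLE. Called as well were 3 of 5 streak markers, 3 of 4 paraxial mesoderm markers and 2 of 5 blood markers, the blood sums being highest in RN (4585 and 2386) and lowest in CLE (142.9 to 429.5). The part of all these cells in the E8.5 values of the ligands was not tested.

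From the NSB of E8.5 into the CNH of the tail bud, every one of the 7 tested ligands changed at some stage, in a test where 22.9% of all probes were called. That share was much larger without E13.5 CNH replicate 1. Wnt8a went from high to undetected by E9.5, Wnt5a went up into the tail bud and Wnt3, read by 1 dim probe, was first detected there. Wnt3a fell at E13.5, Wnt5b fell between E10.5 and E13.5, and Wnt4 and Wnt6 were highest at E13.5. Between 6 and 7 were called when 1 array was left out (6 without NSB replicate 1, E10.5 CNH replicate 1 or E12.5 CNH replicate 2), and 6 when both E13.5 arrays were, an alternative chosen after seeing the data.

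Wnt8a was between 10.67 and 10.91 in the NSB samples, 5.55 and 5.76 in E9.5 CNH, 5.18 and 4.90 in E10.5 CNH, and between 4.52 and 4.94 later. All 3 NSB samples were detected and none of the 11 CNH samples, nor any of the 6 P-CNH samples. It fell at least 28.3-fold by E9.5 (adjusted p = 8.58e-09), the only ligand of the 7 called in that step, where 4.92% of all probes were. By E10.5 it was at least 40.3-fold lower than in NSB (adjusted p = 2.95e-12), and the call held without any single array and within batch 1, which held both groups.

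Against NSB, E10.5 CNH called 3 of the 7 ligands (5 within batch 1 alone), where 7.12% of all probes were called: Wnt8a lower, Wnt5a and Wnt3 higher. The count was 4 without CLE replicate 1 and, with Wnt3 lost, 2 without any of the 4 arrays named below for Wnt3. Wnt5a was 9.81, 10.12 and 9.57 in NSB, 12.42 and 12.42 at E9.5, 12.58 and 12.46 at E10.5, 12.77, 12.80 and 12.22 at E11.5, 13.10 and 12.71 at E12.5, and 13.10 and 10.89 at E13.5. All CNH samples lay above all NSB samples, the lowest of them E13.5 replicate 2. It rose by 2.56 (adjusted p = 0.00158) at E10.5, and within batch 1 by the same amount. At E9.5, in no batch with NSB, the difference was 2.02 (95% CI 0.61 to 3.44, adjusted p = 0.0958), not called, and it was called without either E13.5 CNH array (2.25), CLE replicate 2 (2.14) or either E11.5 P-CNH array (2.02). The second Wnt5a probe called E9.5 as well (2.25), and so did leaving out the batch term (2.59), removing batch means (2.31) and a BeadChip block (1.91). The third probe did not call E10.5 (1.67).

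Wnt3 was undetected in NSB, at 4.40 to 5.36, and was 6.24 and 6.33 at E9.5, 6.75 and 6.42 at E10.5, 6.12, 5.44 and 4.92 at E11.5, 6.41 and 6.19 at E12.5, and 6.57 and 4.41 at E13.5. It was detected in both samples at E9.5, E10.5 and E12.5, in 1 of 3 at E11.5 and in 1 of 2 at E13.5, and in none of the E7.5 and E8.5 regions. At E10.5 it was at least 1.83-fold higher than in NSB (adjusted p = 0.0294), a call lost without NSB replicate 1 or 2 or E10.5 CNH replicate 1 or 2 (fitted differences 1.22 to 1.56), without background correction (0.81) or with no filter (1.39). Within batch 1 the fitted difference was the same, 1.39, and was called.

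Wnt3a was 11.95 and 12.08 at E9.5, 12.49 and 12.74 at E10.5, 12.98, 12.87 and 12.49 at E11.5, 12.38 and 12.25 at E12.5, and 11.06 and 10.91 at E13.5. The E13.5 samples lay below all other CNH and NSB samples, and the E9.5 samples below all the rest. The difference of E9.5 from NSB was -0.56 (95% CI -1.27 to 0.15) and was not called. Against E12.5, E13.5 called 2 of the 7 ligands, where 9.52% of all probes were called, Wnt3a lower (-1.33, 95% CI -1.86 to -0.80, adjusted p = 0.00317) and Wnt6 higher. The Wnt3a call was lost without E12.5 CNH replicate 2 (-1.35), and the differences were -1.32 within batch 2 and -1.35 within batch 3, with 1 array a side and no call.

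Against E10.5, E13.5 called 3 of the 7 ligands, with 1.65% of all probes: Wnt3a and Wnt5b lower, Wnt4 higher. Wnt5b was 10.61 and 10.56 at E9.5, at most 10.52 at E10.5, 9.72, 10.30 and 10.00 at E11.5, 9.06 and 9.18 at E12.5, and 8.53 and 8.00 at E13.5. The stages from E10.5 on did not overlap, each lower than the one before, and the difference of E13.5 from E10.5 was -2.75 (95% CI -3.76 to -1.74, adjusted p = 0.00323), called without any of the 35 arrays tried. For Wnt3a this difference was -1.63 (adjusted p = 0.0422), a call lost without any of 18 of those 35 arrays (-1.75 to -1.51), with batch means removed (-0.84) and with cyclic loess (-1.76). The 2 stages share no batch, and batch 1, which holds E10.5, is tied to the others only through NSB replicate 3, without which neither difference could be fitted.

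Wnt6, a ligand of surface ectoderm, was 7.69, 7.92 and 8.25 in NSB, 7.04 and 6.89 at E9.5, 6.75 and 6.59 at E10.5, 8.82, 7.67 and 7.42 at E11.5, 8.94 and 8.16 at E12.5, and 9.53 and 11.18 at E13.5. The E13.5 samples were the highest and differed widely from each other, replicate 2 being the array with the fewest detected probes. The difference from E12.5 was 1.80 (95% CI 0.67 to 2.93, adjusted p = 0.0403), with 0.59 within batch 2 and 3.02 within batch 3, and the call was lost without any of 15 of the 36 arrays, E13.5 CNH replicate 2 among them (0.66), without a batch term (1.80), with batch means removed (1.80), with no filter (1.80) and under cyclic loess (1.74). Wnt4 was undetected in NSB and at E9.5 and E10.5, and was 6.39, 5.27 and 6.73 at E11.5, 7.04 and 6.80 at E12.5, and 9.41 and 7.21 at E13.5. Here replicate 1 was the higher E13.5 sample. Wnt4 was at least 7.19-fold higher at E13.5 than at E10.5 (adjusted p = 0.0359), lost without NSB replicate 1 or 2 or E10.5 CNH replicate 1 or 2 (fitted differences 3.51 to 3.65). This bound takes the mean of both E13.5 samples without the batch term, and replicate 2 alone would give a much lower one. The fitted difference was 2.54 without E13.5 replicate 1 and 4.97 without replicate 2. The call was also lost with an offset of 100 (1.92), with cyclic loess (2.16) and without the filter on detection (3.58), and the other Wnt4 probe, detected on 4 arrays, was not called (1.33).

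The summed intensity of surface ectoderm markers was highest at E13.5 too. Of 5 tested, 3 were called over these stages, where 22.9% of all probes were. Krt14 was called higher at E13.5 than at E12.5, a step that called 9.52% of all probes. Krt15 was undetected in both E13.5 samples. Grhl3 was undetected in E13.5 replicate 2, but detected in both samples at E9.5, E10.5 and E12.5. The sum over the list was 255.5 and 274.2 in E9.5 CNH, 407.2 and 370.2 at E10.5, 374.1 to 792.5 at E11.5, 1308 and 1251 at E12.5, and 3293 and 3358 at E13.5, where the Krt14 probe added most to it. In P-CNH it was 1786 and 992.4 at E11.5, and in NSB, where Trp63, Krt14, Krt15 and Grhl3 were undetected, 468.7 to 855.8. The part of surface ectoderm in the Wnt4 and Wnt6 levels was not tested. The summed intensity of 5 primitive streak markers was 23480 and 23460 at E12.5 and 16650 and 6705 at E13.5. Their part in the falls of Wnt3a and Wnt5b was not tested.

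Blood markers moved at the entry to the tail bud. All 5 were called over the stages, where 22.9% of all probes were. In E10.5 CNH against NSB, which called 7.12% of all probes, 3 of 5 were called higher. Their summed intensity was 735.7 to 1347 in NSB, 30410 and 30950 at E9.5, and 24290 and 25030 at E10.5. The Hbb-y probe added most to the sums at these 2 ages and was undetected in NSB. Of 4 markers of hindgut and definitive endoderm, 3 were called lower at E10.5, with sums of 6630 to 7046 in NSB and 2208 and 1887 at E10.5. Their part in the differences of Wnt8a, Wnt5a and Wnt3 was not tested.

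**Figure D2:**
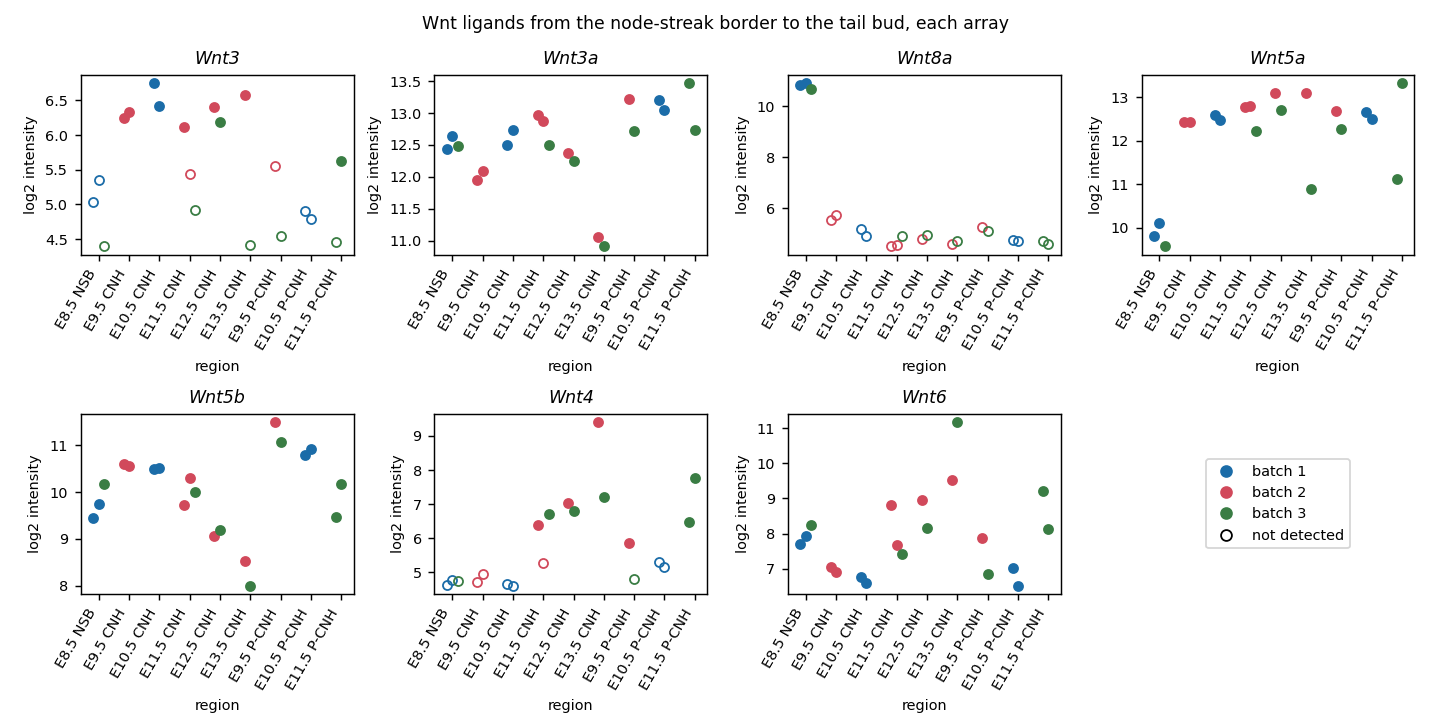
Log2 intensity of the 7 tested ligands in each array of NSB, of the CNH at 5 ages and of P-CNH at 3, 1 point an array, coloured by batch, with open points where the probe was not detected. Wnt8a was detected in NSB alone, and the Wnt5a points of the tail bud all lay above those of NSB.

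**Figure D3:**
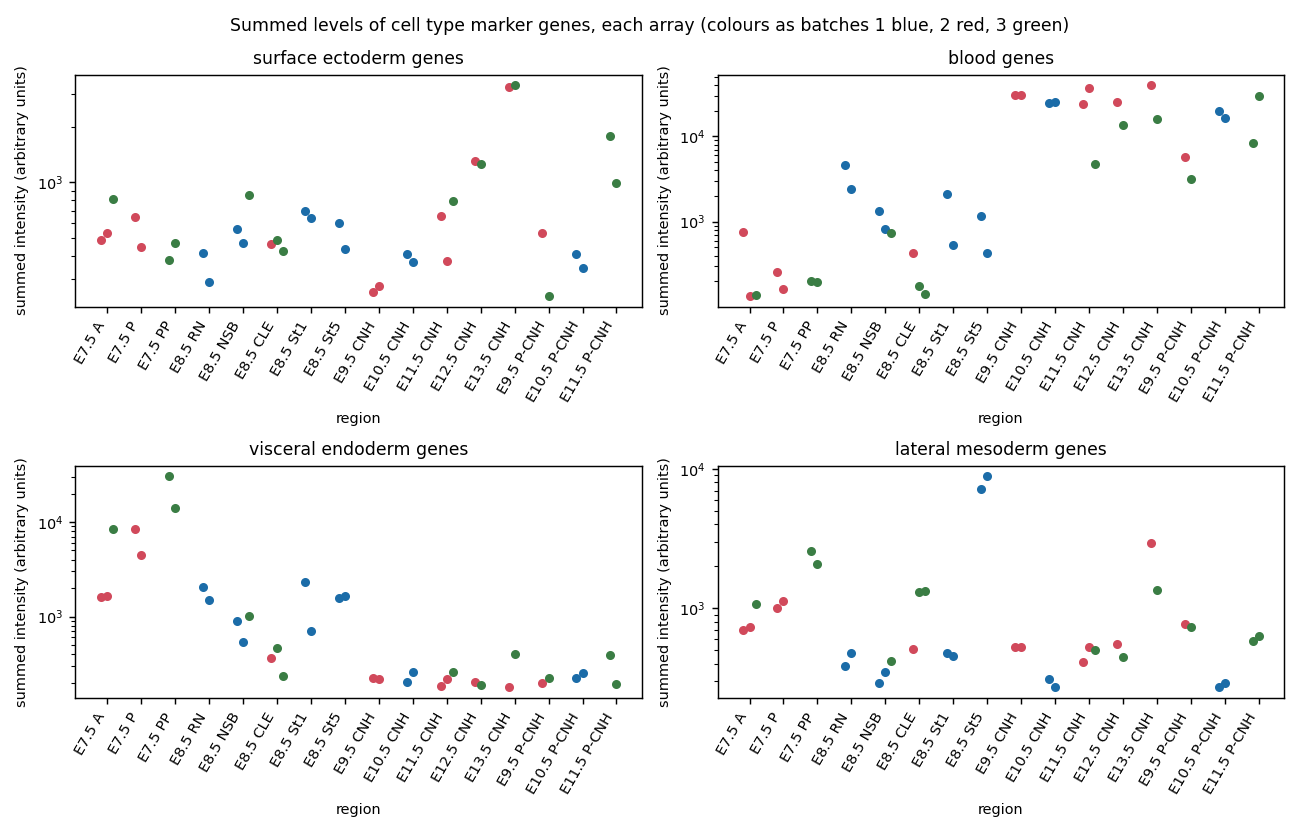
Summed intensity (log axis, arbitrary units) of 4 lists of cell type markers in each array of the 16 regions, coloured by batch. The surface ectoderm sum was highest at E13.5 (3293 and 3358), the lateral mesoderm sum in St5 (7195 and 8842) and the visceral endoderm sum in PP (30380 and 14020).

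Some response genes and partners of the ligands changed over these stages, in the test that called 22.9% of all probes. Of 11 response genes 5 were called, with Cdx1 (8.20) and Tcf7 (3.42) highest in NSB and Cdx4 (3.27) highest at E9.5, all lowest at E13.5. From NSB to E10.5, where 7.12% of all probes were called, 1 of the 11 was, Cdx1, lower by a log2 difference of -5.50 (adjusted p = 5.04e-12), and the median over the list was -0.12 against -0.01 over all probes. Of 18 receptors 7 were called over the stages, among them Lrp6 (1.94, highest at E12.5), Fzd5 (1.59) and Ror2 (1.51), the last a receptor of Wnt5a, both highest in NSB. From NSB to E10.5, Fzd5 fell by 1.54, Ror2 fell by 1.38 and Fzd1 rose by 1.19. Of 12 secreted factors 6 were called over the stages, with Sfrp1 (3.24) and Dkk4 (2.94) highest in NSB and Sostdc1 (2.27) at E13.5, and 3 between NSB and E10.5, Dkk4 (-1.77) and Dkk3 (-1.16) lower and Rspo3 (1.00) higher. Porcn fell by 1.66 to E10.5 and, with Notum (1.84, highest at E11.5), made 2 of 3 secretion genes called over the stages.

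Of 6 other Wnt ligands, 3 were called over the stages, Wnt7b (5.03), Wnt9b (2.33) and Wnt7a (1.71), each highest at E13.5 and lowest at E9.5. With both E13.5 arrays left out, the calls of Wnt7a (0.98), Lrp6 (1.91), Sostdc1 (0.89) and Tcf7 (0.73) were lost. The call of Tcf7 was also lost without E13.5 CNH replicate 2 (1.78), and those of Lrp6 (1.73 to 2.13) and Notum (1.62 to 1.89) without any of 20 and 21 arrays. Lrp6 was also lost under cyclic loess (1.16), at an offset of 100 (0.91), without background correction (1.16), without a batch term (2.29), with batch means removed or a BeadChip block (both 1.81) and with no filter (1.94). Cyclic loess lost Wnt7a (1.24), Sostdc1 (1.03), Cdx4 (2.80) and Notum (1.92) as well, an offset of 100 lost Dkk4 (1.45), and Notum was lost with a BeadChip block (1.43) and with no filter (1.84). From NSB to E10.5, the calls of Fzd1 (1.13 to 1.25), Dkk3 (-1.22 to -1.10) and Dkk4 (-2.03 to -1.51) were lost without NSB replicate 1 or 2 or either E10.5 CNH array. Dkk4 was also lost at an offset of 100 (-0.67), without background correction (-1.14) and with no filter (-1.77), and Dkk3 without a batch term (-0.97). The call of Fzd5 was lost without E10.5 CNH replicate 1 (-1.52) or NSB replicate 2 (-1.45), and that of Rspo3 without NSB replicate 2 (0.88) or E10.5 CNH replicate 2 (0.82). Within batch 1 all 8 genes named for this step were called.

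Within the tail bud, the CNH holds progenitors of cord and mesoderm beside the end of the notochord, and the P-CNH holds mesoderm that has left them. No ligand was called between them by limma over the 3 stages, where 0.502% of all probes were called, and 2 of 7 had an unadjusted p under 0.05, Wnt3 and Wnt3a. The share of all probes called was much larger without E11.5 P-CNH replicate 2. Wnt3 was 6.24 and 6.33 in CNH against 5.55 and 4.54 in P-CNH at E9.5, 6.75 and 6.42 against 4.90 and 4.79 at E10.5, and 6.12, 5.44 and 4.92 against 4.46 and 5.62 at E11.5. Up to E10.5 it was detected in each CNH sample and in no P-CNH sample, while at E11.5 the groups overlapped. The adjusted p over the 3 stages was 0.108, and at E10.5 Wnt3 was at least 2.11-fold higher in CNH (adjusted p = 0.0631, not called). Within batch 1, which held both E10.5 groups, the E10.5 difference was called, with a fitted size of 1.74, and at the same size it was called without CLE replicate 1 or either array of E11.5 P-CNH or of E13.5 CNH. It was called as well at an offset of 100 (0.74), under cyclic loess (2.15), with batch means removed (1.74) and with a BeadChip block (1.74).

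Wnt3a was 11.95 and 12.08 in CNH against 13.22 and 12.72 in P-CNH at E9.5, 12.49 and 12.74 against 13.20 and 13.05 at E10.5, and 12.98, 12.87 and 12.49 against 13.48 and 12.73 at E11.5. It lay below P-CNH in every sample at E9.5 and E10.5 and overlapped at E11.5. The CNH minus P-CNH difference was largest at E9.5, -0.51 at E10.5 and -0.39 at E11.5, with a mean of -0.63 (95% CI -0.95 to -0.31, adjusted p = 0.0688), not called. The mean difference was called without CLE replicate 1 (-0.68), CLE replicate 2 (-0.65), E9.5 P-CNH replicate 2 (-0.68) or E11.5 P-CNH replicate 2 (-0.76). Cyclic loess (-0.70), an offset of 100 (-0.62), a random BeadChip block (-0.62) and skipping background correction (-0.63) each gave a call too. Over the 3 stages, 1 ligand was called without either E13.5 CNH array or the first array of E11.5 P-CNH, and 2 ligands without the second. No ligand's CNH difference depended on stage by limma, where 0.0184% of all probes did, and 1 of 7, Wnt3, had an unadjusted p under 0.05. This share of all probes, too, was much larger without E11.5 P-CNH replicate 2.

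For Wnt5a, Wnt5b, Wnt6 and Wnt4 no stage was called, the differences running from -1.07 for Wnt4 at E11.5 to 0.29 for Wnt5b at E11.5, and Wnt8a was undetected on both sides. Of the pathway lists, 1 of 18 receptors was called, Fzd6, with a largest difference of 1.85 (adjusted p = 8.86e-05), and none of the 11 response genes, 12 secreted factors, 3 secretion genes or 6 other ligands. The node and notochord markers separated the regions, 3 of 6 being called (Noto, Shh and Foxa2, all higher in CNH), with sums of 1824 to 4351 in CNH and 347.6 to 514.1 in P-CNH. Of the 4 markers of hindgut and definitive endoderm, 2 were called as well, in the test that called 0.502% of all probes. No blood marker was called, at any stage or over all 3, but the blood sums differed most at E9.5, with 30410 and 30950 in CNH against 5745 and 3132 in P-CNH. They were 24290 and 25030 against 19980 and 16390 at E10.5, and 4710 to 36970 against 8453 and 30100 at E11.5. The part of any of these cells in the Wnt3 and Wnt3a values was not tested.

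The posterior ends of the streak at E7.5 and E8.5, PP and St5, both hold precursors of lateral mesoderm. St5 called 2 of the 7 ligands against PP, where 0.995% of all probes were called. Wnt8a, at 9.61 and 10.67 in PP and 7.13 and 7.39 in St5, was lower in St5 by a log2 difference of -3.08 (95% CI -4.07 to -2.09, adjusted p = 0.00164), without overlap and without loss of the call when any of the 35 arrays tried was left out. Wnt5b, at 9.14 and 9.39 in PP and 10.67 and 10.67 in St5, was higher by 1.98 (95% CI 0.99 to 2.97, adjusted p = 0.0463), and this call was lost without any of 20 of the same 35 arrays, each PP and St5 array among them (1.83 to 2.13). Wnt3a differed by -0.03 (95% CI -0.87 to 0.80), and Wnt5a by 0.88 (95% CI -0.79 to 2.56). The 2 regions share no batch, and batch 1, which holds St5, is tied to the others only through NSB replicate 3, without which no difference between them could be fitted. The Wnt5b difference was 1.40 without a batch term, still called. It was 0.81 with batch means removed and 1.53 with replicate number as a term, called in neither.

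No gene of the 5 pathway lists was called between PP and St5, where 0.995% of all probes were. Of 5 lateral mesoderm markers, 3 were called higher in St5, and Apob, 1 of 6 visceral endoderm markers, was called lower, with visceral endoderm sums of 30380 and 14020 in PP and 1583 and 1667 in St5. Their part in the Wnt5b and Wnt8a differences was not tested.

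**Figure D4:**
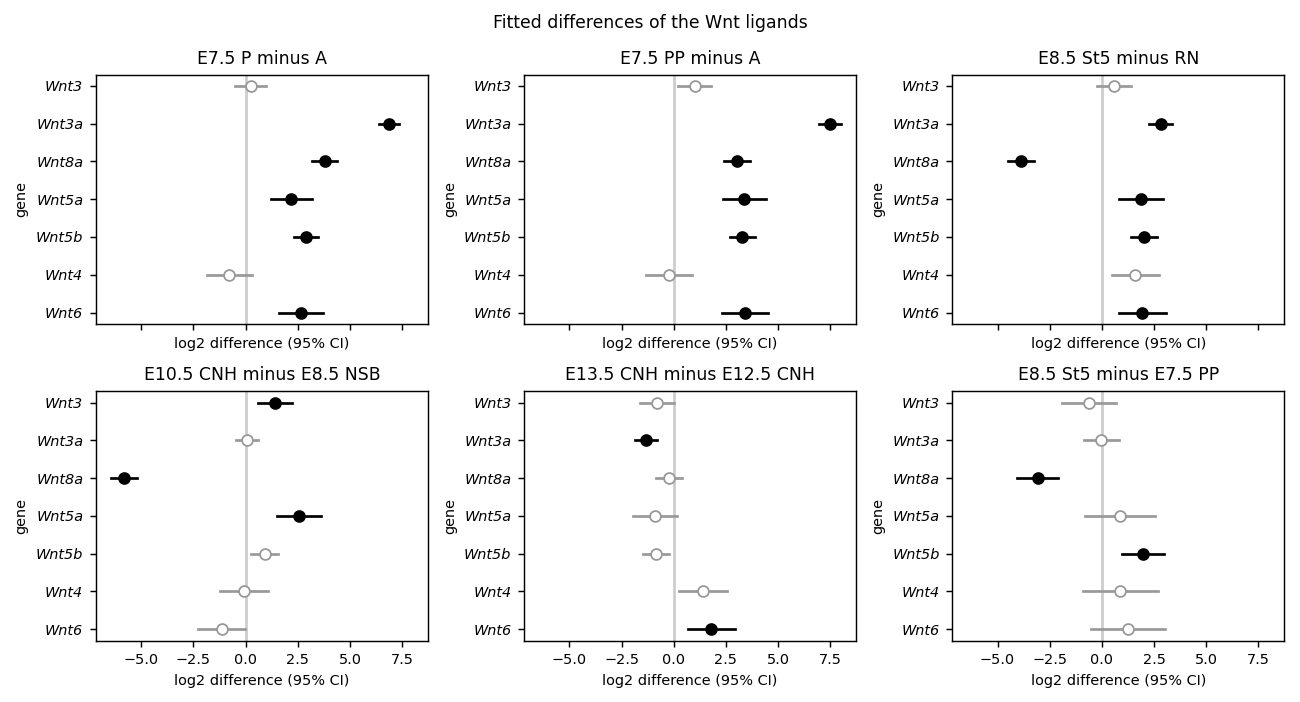
Fitted log2 differences of the 7 tested ligands with 95% confidence intervals in 6 comparisons, filled points where the gene was called. The Wnt8a difference was positive in both E7.5 comparisons and negative in St5 against RN, in E10.5 CNH against NSB and in St5 against PP.

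Over all 16 regions the ligands did not move as 1 group. Between fitted region means, which come from 36 arrays and share the batch terms, Wnt3a and Wnt5b had r = 0.839, which was 0.666 without A and RN, the regions farthest from the Wnt3a median. Wnt3a and Wnt5a had r = 0.716, which was 0.158 without those regions and so rested on them. Wnt5a and Wnt8a had r = -0.726, but Wnt8a was detected on no array of 8 of the 16 regions, all of the tail bud, so the value sets its background there against high Wnt5a. It was -0.976 without A and P, between which both genes rose together. Wnt4, detected on no array of 7 regions, and Wnt6 had r = 0.616, and 0.328 without E13.5 CNH and E11.5 P-CNH. Wnt3, detected on 9 arrays, had r = 0.617 with Wnt5a and -0.580 with Wnt8a, and 0.523 and -0.500 without E10.5 and E12.5 CNH.

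**Figure D5:**
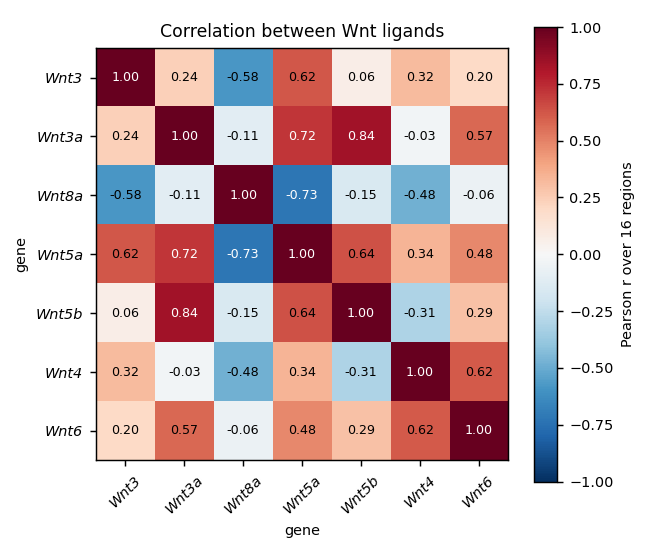
Pearson correlation of fitted region means between the 7 tested ligands over 16 regions, without a test. The highest value was that of Wnt3a with Wnt5b (0.84) and the lowest that of Wnt5a with Wnt8a (-0.73).

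For each ligand detected on at least 18 arrays, the genes with the most similar course over the 16 regions were sought among 14672 probes of other genes. Wnt3a was closest to Evx1 (r = 0.959), Chst7 (r = 0.946) and Tbx6 (r = 0.936), which were 0.614, 0.676 and 0.324 without A and RN. Evx1 and Tbx6 are transcription factors of the streak and the paraxial mesoderm. Wnt8a was closest to Ephx2 (r = 0.965), Slc38a8 (r = 0.963) and Rerg (r = 0.963), the lowest of which was 0.957 without the 2 regions farthest from its median, and in these values too Wnt8a was at background in 8 regions. Wnt5a was closest to Limch1 (r = 0.978), Lmo2 (r = 0.952), a regulator of blood and vessel precursors, and Fbxl17 (r = 0.948), and these were 0.970, 0.924 and 0.925 after the same step. Wnt5b was closest to Fgf8 (r = 0.925), the growth factor of the streak, to Ptk7 (r = 0.915), a Wnt co-receptor of planar polarity, and to Hoxa4 (r = 0.897), with 0.845, 0.835 and 0.811 after it. Wnt6 had no close match, the highest being Nme7 (r = 0.825), Kctd6 (r = 0.814) and Tns4 (r = 0.808), with 0.674, 0.752 and 0.773 after it. These are the highest of very many values and carry no test.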

How the data were processed

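The deposited values were Illumina bead array intensities (MouseWG-6 v2.0) with a detection p-value per probe, not normalised, for 36 arrays on 6 BeadChips; the authors had used lumi (version not given), ComBat and limma. Intensities were background corrected by normexp (offset 16, background inferred from the detection p), quantile normalised and log2 transformed in limma 3.58.1 (R 4.3.3). The 21712 probes with a detection p under 0.01 on at least 1 array were tested, and the other 23569 were left out. One limma fit with region and batch as terms (18 residual degrees of freedom) gave moderated two-sided tests of all contrasts and F tests over several regions, adjusted by Benjamini-Hochberg over all tested probes. Calls needed an adjusted p not above 0.05 and at least a 1.5-fold difference. Each gene was represented by its tested probe with the highest mean log2 intensity. From each pathway list, up to 3 called genes with the largest differences were named per comparison. The ligands and lists were chosen with earlier results of these data known. Tried instead were: skipping background correction, 100 as the offset, cyclic loess, no batch term, batch means removed beforehand, BeadChip as a random block, each batch alone, no filter, only probes that all arrays of some region detected, a detection p under 0.05, other probes, replicate number as a term, leaving out each array and, chosen after seeing the data, leaving out E13.5 CNH and replicate number as a term within batch 1. The fit was tested on simulated data.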

Additional observations from a re-analysis of the deposited data

How the results depend on the processing

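Of 34 called differences of single ligands, 17 settings gave 479 values, of which 437 kept direction and call, 41 lost the call and 1 changed sign: Wnt6 in P against A was -0.0219 by its least bright probe, undetected in A and P. Leaving out arrays gave 1216 values, with 1129 calls kept, 87 lost and no change of sign. Wnt3a in PP minus P, not called, was -0.28 with batch means removed. Of the counts, the 5 at E7.5 was 3 with the least bright of 3 probes, the 3 at E8.5 was 5 with the BeadChip as a random block (correlation 0.485), and the 0 between CNH and P-CNH was 1 with cyclic loess, with the BeadChip block or without E13.5 CNH (chosen after seeing the data), and 0 to 2 without 1 array. The 3 between NSB and E10.5 CNH was 5 within batch 1, there also with replicate number as a term (chosen after seeing the data), and the 2 between PP and St5 was 1 with batch means removed or with replicate number as a term, and 1 to 2 without 1 array. Differences of replicates 1 and 2 correlated by a median of 0.0331 over 120 pairs of regions (-0.680 to 0.612), above 0.1 in 39, so replicate numbers were not taken as pairs over all regions. Within batch 2, 1 of 6 pairs was above 0.1. Within batch 1, 9 of 15 were (-0.0916 to 0.413), among them all 6 pairs of RN, NSB, St1 and St5, and there replicates 1 lay on 1 BeadChip and replicates 2 on another, so a shared number and a shared BeadChip cannot be told apart. With replicate number as a term within batch 1, every call was that of batch 1 alone. With it as a term over all arrays, Wnt3a at E13.5 against E10.5 (-1.69), Wnt5b in St5 against PP (1.53), Cdx4 over the E8.5 regions (1.82) and Lrp6 over the stages (1.99) were not called, and Wnt5a at E9.5 against NSB was (2.44). Without NSB replicate 3, batch 1 is not tied to the others, and differences across it could not be fitted; no batch held all the regions of any F test. The cause of these changes was not tested. Median intensity of detected over undetected probes ran from 2.28 to 15.1 between arrays, which limits dim probes such as those of Wnt3 and Wnt4.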
